A study of Mus musculus with 16 samples.

Results

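The nuclear genes for the subunits of the oxidative phosphorylation machinery were followed across mouse embryonic fibroblasts (MEF), embryonic stem (ES) cells and induced pluripotent stem (iPS) cells on 16 one-colour microarrays. A gene was taken when its name on the array began with Nduf, Uqcr or Atp5, when it was Cox followed by a number from 4 to 8, or when it was Sdha, Sdhb, Sdhc or Sdhd. This gave 88 of the 28095 gene names of the array, carried by 128 of its 41174 probes. Complex I held 40 of these genes, complex II 4, complex III 7, complex IV 19 and complex V 15. The remaining 3 names matched the rule without being subunits, since Atp5s and Atp5sl are assembly factors now called Dmac2l and Dmac2, and Cox4nb is now Emc8, a neighbour of Cox4i1 that encodes part of a membrane protein complex of the endoplasmic reticulum. A further 5 names belonged to assembly factors, namely Ndufaf1 to Ndufaf4 and the supercomplex factor Cox7a2l.

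The 6 groups were 1 array of C57BL/6 MEF, 2 arrays of ES cells (B6ES, of C57BL/6 origin, and TT2, of C57BL/6 x CBA origin), 1 array of 20D17, an iPS line made with retroviruses from C57BL/6 x DBA cells, and 4 arrays each of iHAC1-iPS, iHAC2-iPS and iHAC-free iPS clones. iHAC vectors are human artificial chromosomes, which stay apart from the host chromosomes. iHAC1 carries 2 copies each of Klf4, c-Myc, Sox2 and Oct4, all driven by the CAG promoter, and iHAC2 carries 2 more copies of Oct4 together with a short hairpin RNA against p53 under the H1 promoter. The iHAC1-iPS clones (1-A3 and 1-B, 1-C3 and 1-D6) and the iHAC2-iPS clones (2-B1 and 2-C6, 2-E and 2-N) were derived from C57BL/6 MEF and kept their vector. Each iHAC-free line, F-B1 from 2-B1, F-C5 from 2-C6, F-E4 from 2-E and F-N7 from 2-N, was isolated after the vector, which also carries EGFP, had been lost and EGFP-negative cells had been sorted. Each iPS line is 1 clone, and pluripotent lines were kept on mitomycin-treated MEF feeders, so that RNA of feeder cells can be part of every pluripotent sample. The p-values below measure only the spread between the clones of a group, each measured once.

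Oxidative phosphorylation takes place in the inner mitochondrial membrane. Complexes I and II pass electrons from NADH and succinate to ubiquinone, complex III passes them on to cytochrome c, complex IV hands them to oxygen, and complex V uses the proton gradient built on the way to make ATP. Most subunits are made in every cell type, while several small subunits of complex IV come in alternative isoforms: Cox6a2, Cox7a1 and Cox8b are the striated muscle forms, Cox4i2 is best known from lung, and Cox6b2, Cox7b2 and Cox8c are best known from testis. Pluripotent cells are known for drawing much of their ATP from glycolysis.

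A level is given throughout as the log2 of a probe's processed signal minus the 75th percentile of its array, and a difference as the difference of mean levels on that log2 scale. Levels of different probes are not comparable, since probes differ in brightness. Each gene was read from its brightest probe. All 88 genes were tested, and for 84 of them this probe lay well above background on all 16 arrays. The other 4 were Cox4i2, Cox7b2, Cox8b and Cox8c.

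Several facts of the arrays bear on all comparisons. The share of spots well above background ran from 54.2% to 65.8% by array. The arrays came from 4 slides and 2 scan sessions, and the 4 iHAC1-iPS, MEF, ES and 20D17 arrays were scanned in another session than the iHAC2-iPS and iHAC-free arrays, so that session and group cannot be told apart in any comparison across that line. Of the iHAC clones, only 1-D6 shared a slide with the ES arrays. As a check of the labels, all 9 measured pluripotency markers were well above background in ES, 20D17, iHAC2-iPS and iHAC-free cells, against 4 of 9 in MEF. They were well above background at 6 to 9 of 9 in the iHAC1-iPS clones, where 7 of the 9 lay below ES cells at adjusted p under 0.05. Of these, Zfp42 ranged from -5.88 to -3.48 against 2.89 and 5.18 in the ES arrays. Pou5f1, which encodes Oct4, was called higher than in ES cells instead (2.77 ± 0.49, adjusted p = 0.00265). Oct4 and Sox2 are carried by the vectors, so their levels in iHAC1-iPS and iHAC2-iPS clones can include RNA of the vector. In the iHAC1-iPS clones the fibroblast markers averaged 2.71 to 3.53 over the 10 listed genes. The ES arrays gave 1.05 and 2.29, and MEF 4.18. 20D17, 2-B1, F-C5 and F-N7 shared the range of the iHAC1-iPS clones, at 3.12, 3.34, 3.22 and 2.93. All 10 genes were well above background on every array. Of 9 germ line markers, 3 or 4 were above background in the iHAC1-iPS clones and all 9 in ES and iHAC-free cells. What part these shifts in cell state had in the results below was not tested.

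**Figure D1:**
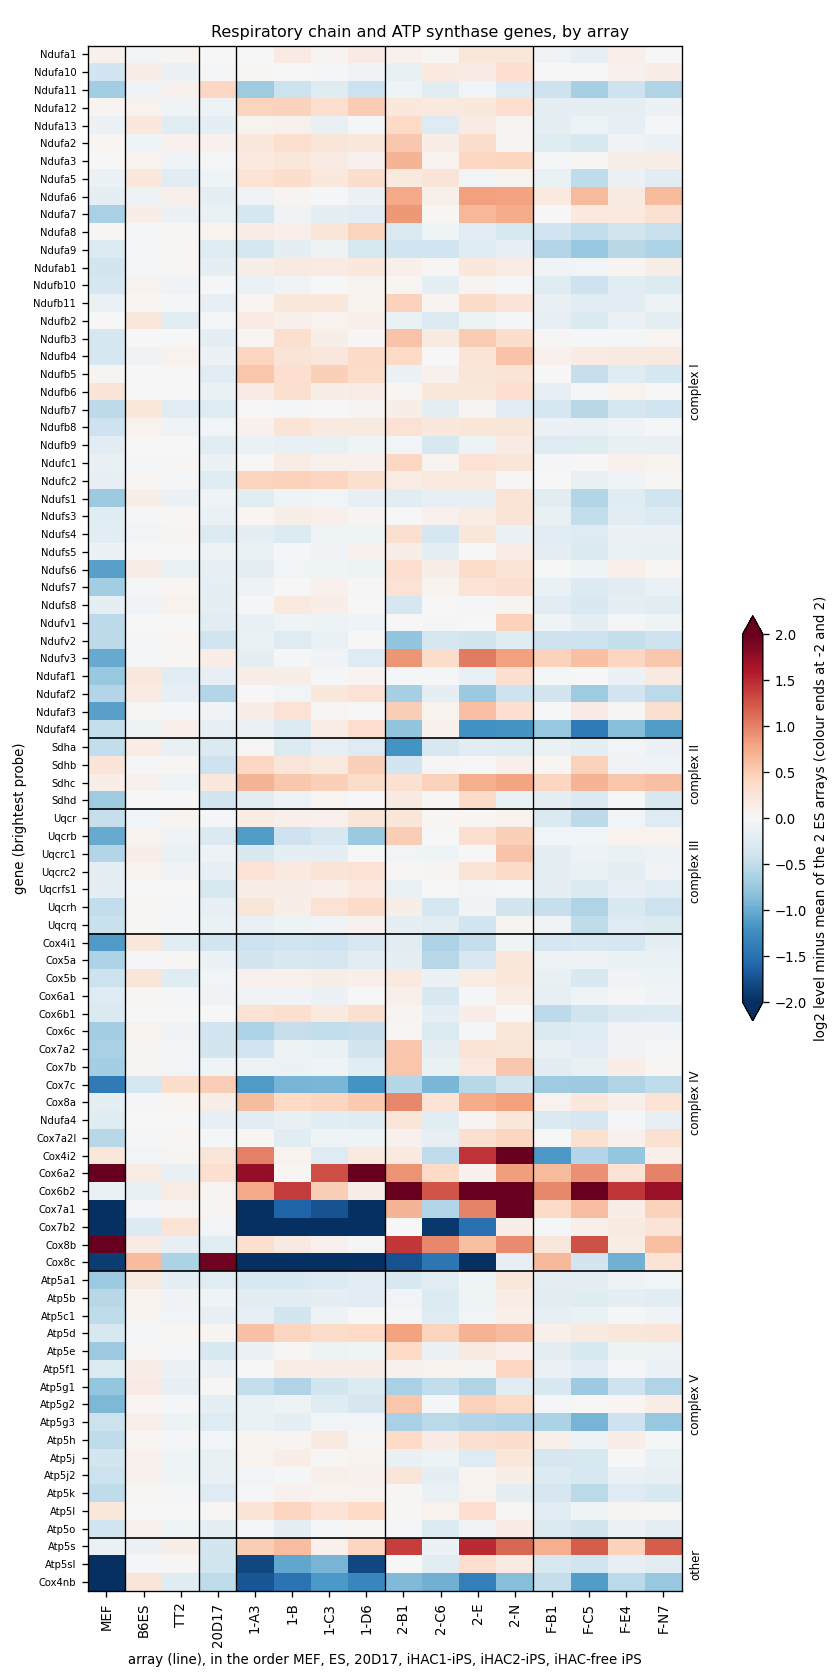
Each row is 1 gene (87 drawn), ordered by respiratory complex, and each column 1 of the 16 arrays; colour is the log2 level minus the mean of the 2 ES arrays, with the scale ending at -2 and 2. Most rows are pale in all columns; the strongest colours fall on MEF and on the tissue-restricted isoforms of complex IV.

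The broadly expressed subunits were held within a narrow range in all pluripotent lines. Leaving out the 7 tissue-restricted isoforms and the 3 names that are not subunits left 78 genes. The median SD of these 78 genes among the clones of a group was 0.0817 in iHAC1-iPS, 0.197 in iHAC2-iPS, 0.0887 in iHAC-free and 0.0805 in ES cells. Over all 31415 tested probes it was 0.271, 0.401, 0.224 and 0.216, and over probes of like brightness 0.154, 0.245, 0.131 and 0.125. The median level of the 78 genes, taken relative to ES cells, lay between -0.23 and 0.21 in each of the 12 iHAC lines. No more than 2 of the 78 genes departed from ES cells by 2-fold or more in any of these lines.

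**Figure D2:**
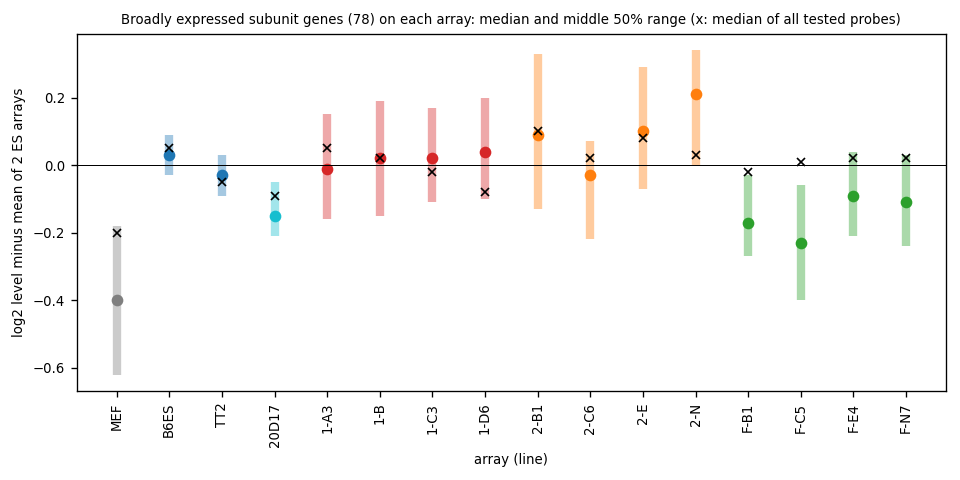
For each of the 16 arrays, the dot is the median log2 level of the 78 broadly expressed genes minus the ES mean, the bar is their middle 50% range, and the cross is the same median over all tested probes. MEF lies lowest at -0.40, the iHAC-free lines lie between -0.23 and -0.09, and 2-N lies highest at 0.21.

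Counts of genes past the threshold of adjusted p under 0.05 were set beside the share of all tested probes that passed it. Between iHAC1-iPS and ES cells, 4 of the 88 genes were higher and 7 lower, where 10.2% and 11.1% of all probes were called in these directions. Quantile normalization gave 9 and 7, and only 4, all lower, remained without B6ES or without TT2, while 6 were called without 1-A3 and 7 without 1-D6. Between iHAC2-iPS and ES cells, 5 were higher and 2 lower, against 5.89% and 5.66% of all probes. This count was 0 without either ES array and when only the compared groups were fitted, so each call of 1 of the 88 genes between iHAC2-iPS and ES cells given below was lost under these settings, and it was 4 without 2-E and 16 without 2-C6. Between iHAC1-iPS and iHAC2-iPS, 6 were higher and 14 lower in iHAC1-iPS, against 17.2% and 20.3% (9 and 12 with quantile normalization). In these 3 comparisons the share of genes called was close to or below the share over the whole array. Between iHAC1-iPS and iHAC-free cells, 19 were higher and 7 lower in iHAC1-iPS, against 18.7% and 18.3% (19 and 12 with quantile normalization), so that the share called higher was near that of the array and the share called lower was below it. Between iHAC-free and ES cells no gene was called by limma in either direction, where 0.191% and 0.29% of all probes were called, and 18 of the 88 fell under 0.05 before adjustment, beside 20.5% of all probes. No gene was called between iHAC2-iPS and iHAC-free cells either, where 0.455% and 0.643% of all probes were called, and 32 of the 88 had an unadjusted p under 0.05, beside 18.6% of all probes. With normexp background correction that count was 6, without 2-C6 it was 5 and without 2-N it was 2. The comparisons share arrays, and the values of each are given side by side.

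**Figure D3:**
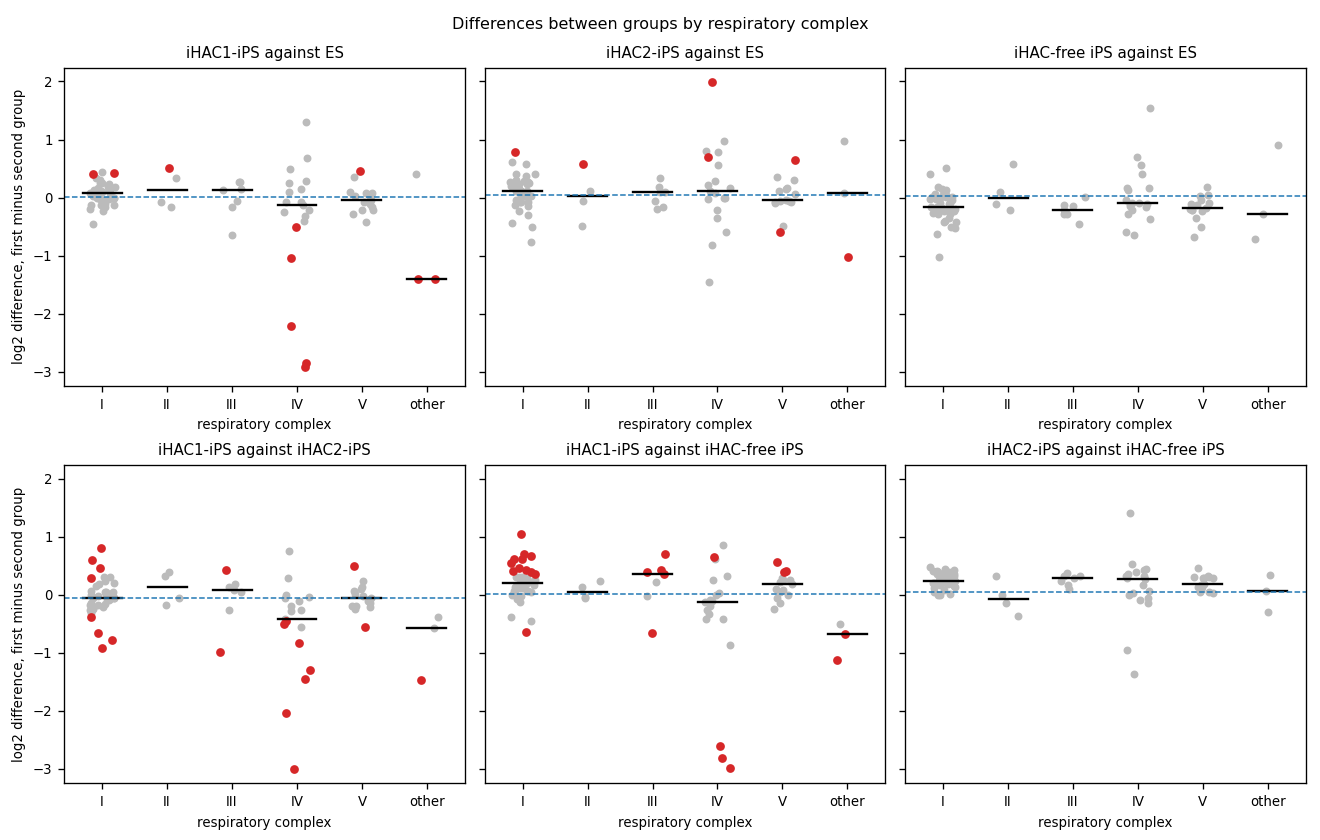
Each panel is 1 of the 6 comparisons, each dot 1 of the 88 genes placed by complex, and the vertical axis the difference in log2 level; red dots passed adjusted p under 0.05, black lines are medians of a complex and the dashed line is the median of all tested probes. Complex IV spreads furthest downward in the comparisons of iHAC1-iPS, and in iHAC2-iPS against iHAC-free cells 39 of the 40 dots of complex I and all 7 and 15 of complexes III and V lie above zero.

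The largest differences belonged to the tissue-restricted isoforms of complex IV. Cox7a1, the heart and skeletal muscle form of subunit VIIa, was high in every pluripotent line except the iHAC1-iPS clones. The probe that measured it, shown 5′ to 3′ because the contrast between the vector groups rests on it, crosses an exon junction at chr7:30970337-30970948 on the plus strand of mm9, so that it reads spliced RNA of this isoform.
Cox7a1 probe: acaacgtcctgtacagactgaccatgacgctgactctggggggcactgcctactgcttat
Its level was 2.19 and 2.30 in the ES arrays, 2.30 in 20D17 and -1.25 in MEF. It was -0.42, 0.64, 0.50 and -0.56 in the iHAC1-iPS clones, 2.92, 1.67, 3.23 and 4.33 in the iHAC2-iPS clones, and 2.63, 2.86, 2.37 and 2.71 in the iHAC-free lines. All 4 iHAC1-iPS clones lay below every other pluripotent line and above MEF. The difference of iHAC1-iPS was -2.21 ± 0.56 (SE) to ES cells (adjusted p = 0.0162), -3.00 ± 0.46 to iHAC2-iPS (adjusted p = 0.000635) and -2.60 ± 0.46 to iHAC-free cells (adjusted p = 0.00114). On the slide that 1-D6 shared with the ES arrays the difference was -2.81. The call against ES cells was lost without either ES array, at adjusted p = 0.1 without B6ES and 0.0872 without TT2.

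Cox6b2, a testis form of the subunit at the dimer contact of complex IV, had another pattern. Its level was 0.53 and 0.83 in the ES arrays, 0.73 in 20D17 and 0.55 in MEF. It was 1.44, 2.08, 1.18 and 0.81 in iHAC1-iPS, 2.79, 1.93, 2.94 and 3.02 in iHAC2-iPS, and 1.63, 2.77, 2.11 and 2.40 in iHAC-free cells. Every iHAC2-iPS and iHAC-free line lay above both ES arrays, and the ES, 20D17 and MEF arrays lay together. The difference from ES cells was 1.99 ± 0.40 in iHAC2-iPS (adjusted p = 0.0134) and 1.55 in iHAC-free cells (adjusted p = 0.0794). The iHAC1-iPS clones were 1.30 below the iHAC2-iPS clones (adjusted p = 0.00908), although 1-B, at 2.08, lay above 2-C6.

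The remaining testis forms were dim. Cox7b2 was at -4.87 and -4.33 in the ES arrays, -4.65 in 20D17 and between -4.62 and -4.34 in the iHAC-free lines, all of them well above background. No iHAC1-iPS, iHAC2-iPS or MEF array had it well above background, with measured levels of -7.64 to -7.27 in iHAC1-iPS and -6.53 to -4.46 in iHAC2-iPS. On this basis the iHAC1-iPS level was below that of ES cells by at least 1.89-fold (adjusted p = 0.002) and below that of iHAC-free cells by at least 2.07-fold (adjusted p = 0.000205). Each such bound sets the mean of the bright group against the lowest signal that counted as well above background on the dim arrays. Cox8c was well above background in both ES arrays, at -4.19 and -5.46, in 20D17, at -2.88, and in 2 of the 4 iHAC-free lines. No array of iHAC1-iPS, iHAC2-iPS or MEF had it well above background, and in iHAC1-iPS it was below ES cells by at least 1.61-fold (adjusted p = 0.00503). Without B6ES the adjusted p of Cox8c against ES cells was 0.0891. With the normexp background correction all these calls of Cox7b2 and Cox8c were lost, with differences of -0.35 and -0.34 from ES cells and -0.19 and -0.12 from iHAC-free cells. Between iHAC1-iPS and iHAC2-iPS the fit called Cox7b2, Cox8c and Cox8b lower in iHAC1-iPS (adjusted p = 0.00234, 0.032 and 0.019), but neither group had an array well above background, and no fold is given.

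Of the striated muscle forms, Cox6a2 and Cox8b were high in MEF. Cox7a1, also a striated muscle form, went the other way there, at -3.50 from the ES mean and below the 15 other arrays. Cox6a2 was at -0.26 in MEF, -4.89 and -5.17 in the ES arrays, -4.71 in 20D17, and between -4.99 and -2.88 in the 12 iHAC lines. Cox8b was at -1.42 in MEF and no higher than -6.37, not well above background, on the 15 other arrays. No comparison of iPS and ES groups called Cox6a2. Cox4i2 was well above background on 1 array, that of 2-N, at -4.45. Of the partners made in most tissues, Cox4i1, the form of subunit IV opposite Cox4i2, ranged from 6.34 to 7.17 in the pluripotent lines, and Cox6a1, opposite Cox6a2, from 8.03 to 8.48.

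**Figure D4:**
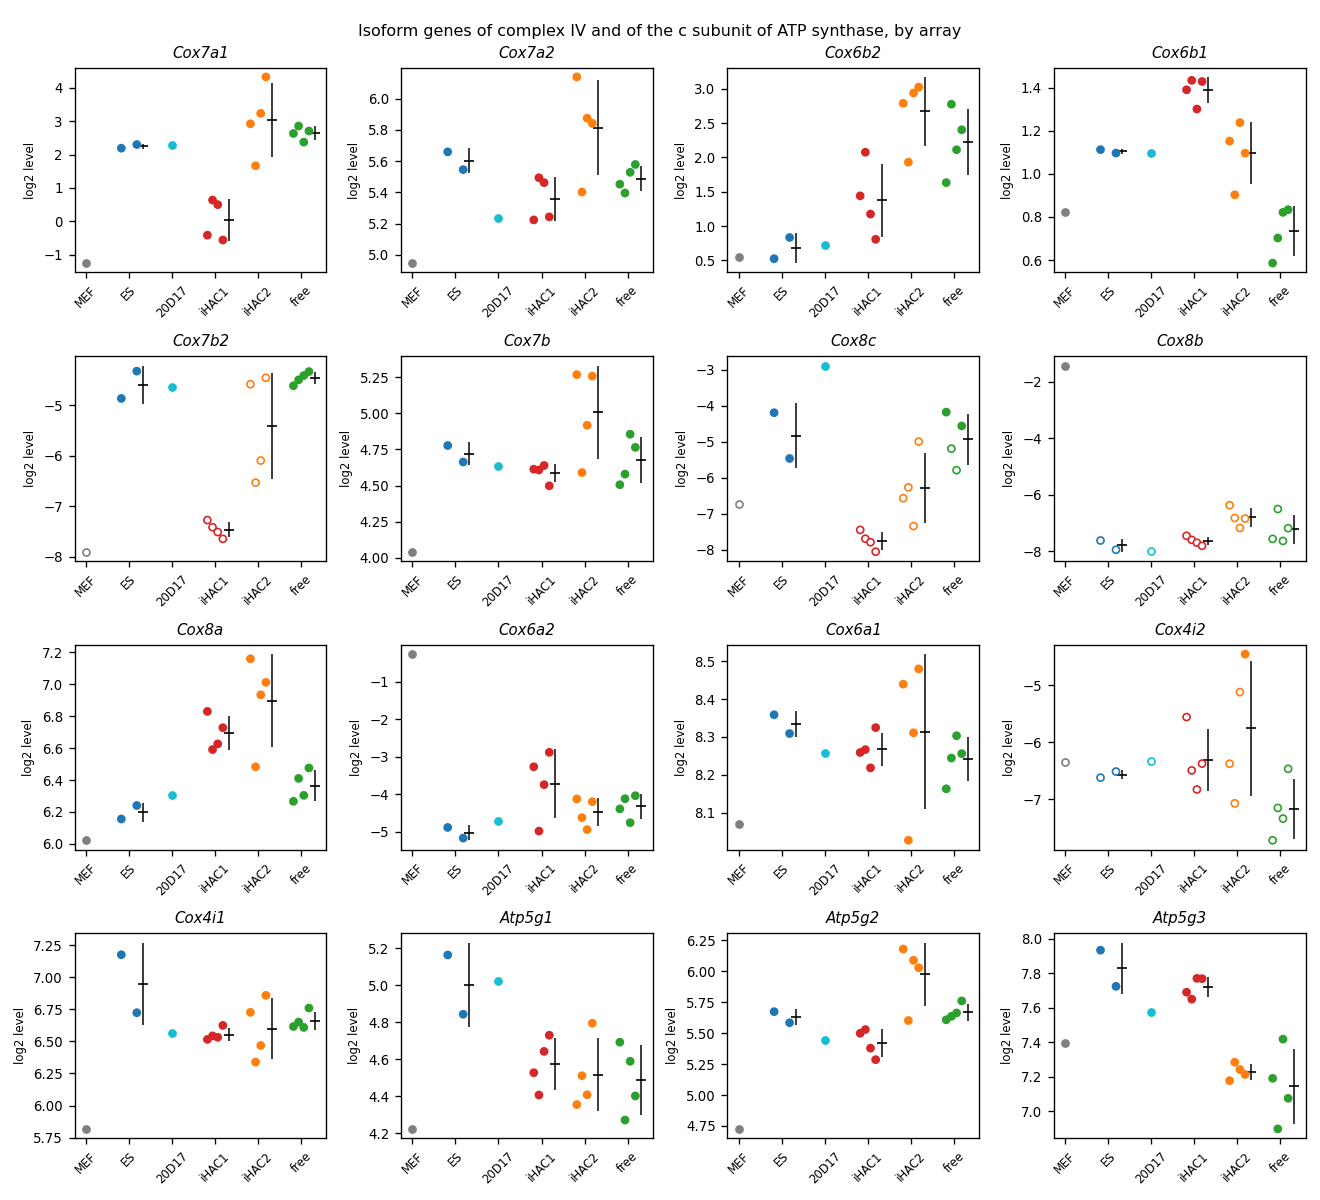
Each panel is 1 gene with its own vertical axis in log2 level, each dot 1 array, filled where the probe was well above background and open where it was not; bars are group means ± SD (groups of 2 or 4 arrays). Cox7a1 is low in MEF and iHAC1-iPS, Cox6b2 is raised in iHAC2-iPS and iHAC-free cells, and Cox6a2 and Cox8b stand out in MEF.

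Among the broadly expressed subunits of complex IV, Cox7c and Cox6c, small membrane subunits of the complex, were lower in iHAC1-iPS relative to ES cells. Cox7c was at 4.02 and 4.73 in the ES arrays, 3.24, 3.45, 3.46 and 3.18 in iHAC1-iPS, 3.81, 3.46, 3.81 and 4.01 in iHAC2-iPS, and 3.66, 3.65, 3.78 and 3.86 in iHAC-free cells. All 12 iHAC lines lay below both ES arrays, and the ES arrays differed from each other more than the clones within any iHAC group. The difference of iHAC1-iPS from ES cells was -1.04 ± 0.21 (adjusted p = 0.00499). Cox6c fell by 0.51 against ES cells (adjusted p = 0.0358) and by 0.50 against iHAC2-iPS (adjusted p = 0.00953). Cox7a2, the widely expressed partner of Cox7a1, was 0.46 lower than in iHAC2-iPS (adjusted p = 0.0331), with overlapping groups. In the other direction, Cox8a, the widely expressed form of subunit VIII, was 0.70 above ES cells in iHAC2-iPS (adjusted p = 0.0304), and Cox6b1, the widely expressed partner of Cox6b2, was 0.65 higher in iHAC1-iPS than in iHAC-free cells (adjusted p = 0.00106). In all, 5 of the 19 genes of complex IV were called lower in iHAC1-iPS relative to ES cells and 7 lower than in iHAC2-iPS, none of them higher, beside 11.1% and 20.3% of all probes called lower. Of the latter 7, Cox7b2, Cox8b and Cox8c were not well above background on any array of either group, which leaves 4. Against iHAC-free cells 3 genes of complex IV were lower and 1 higher in iHAC1-iPS, beside 18.3% and 18.7% of all probes. In iHAC2-iPS 2 were higher than in ES cells, beside 5.89% of all probes.

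Of the 40 genes of complex I, 11 were higher and 1 lower in iHAC1-iPS than in iHAC-free cells, where 18.7% and 18.3% of all probes were called. Promoters of genes that behaved differently are shown here, each as the 250 bases before the start of the gene in the GRCm38.p6 assembly with RefSeq annotation, 5′ to 3′ on the gene's strand, with capitals for motif matches of 6 kinds, searched on both strands: the NRF1 core GCGCANGCG, an ETS site CCGGAAGT, the ERR site AAGGTCA, the YY1 core AAGATGGCG, the Sp1 box GGGCGG and the E box CACGTG. NRF1, the GABP factor of the ETS family, the oestrogen-related receptors (ERR) and YY1 are known regulators of respiratory genes.
Ndufa8, higher in iHAC1-iPS (chr2:36049339-36049588, minus strand): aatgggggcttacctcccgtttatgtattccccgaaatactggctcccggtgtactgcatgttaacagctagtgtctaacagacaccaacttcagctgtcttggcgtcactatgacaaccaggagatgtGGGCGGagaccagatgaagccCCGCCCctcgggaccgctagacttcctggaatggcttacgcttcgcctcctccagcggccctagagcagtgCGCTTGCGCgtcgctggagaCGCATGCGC
Uqcrh, higher in iHAC1-iPS (chr4:116075071-116075320, minus strand): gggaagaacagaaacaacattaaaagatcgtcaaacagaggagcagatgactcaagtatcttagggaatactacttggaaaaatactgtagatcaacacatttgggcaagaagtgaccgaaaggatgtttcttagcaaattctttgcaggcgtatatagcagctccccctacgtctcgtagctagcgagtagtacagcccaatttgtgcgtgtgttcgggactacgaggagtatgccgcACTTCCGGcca
Cox7a1, lower in iHAC1-iPS (chr7:30183921-30184170, plus strand): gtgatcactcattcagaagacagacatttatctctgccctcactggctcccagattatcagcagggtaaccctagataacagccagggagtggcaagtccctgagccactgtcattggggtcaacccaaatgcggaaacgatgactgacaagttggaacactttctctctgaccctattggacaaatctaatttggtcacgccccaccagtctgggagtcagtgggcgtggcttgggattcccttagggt
Cox6b2, higher in iHAC2-iPS (chr7:4753095-4753344, minus strand): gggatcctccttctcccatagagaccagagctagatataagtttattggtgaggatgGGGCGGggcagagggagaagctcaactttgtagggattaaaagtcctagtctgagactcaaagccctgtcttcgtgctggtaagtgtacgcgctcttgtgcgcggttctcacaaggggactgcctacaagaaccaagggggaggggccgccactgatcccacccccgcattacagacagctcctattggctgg
For Ndufa8 and Uqcrh, higher refers to the iHAC2-iPS and iHAC-free lines, which were scanned in another session. Against ES cells limma called neither gene in iHAC1-iPS (0.23 and 0.26, adjusted p = 0.263 and 0.298). The Ndufa8 window held 2 NRF1 cores, 2 Sp1 boxes and 17 CpG pairs, and the Uqcrh window 1 ETS site and 11 CpG pairs. The window of Cox7a1 held none of the 6 motifs and 4 CpG pairs, and that of Cox6b2 held 1 Sp1 box and 8 CpG pairs.

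Over all members, 73 of the 88 genes had a promoter entry. The NRF1 core was found in 14 of the 73 windows (19.2%), against 5.33% of all 27018 promoters and 15.3% of the 7435 promoters that held at least as many CpG pairs as the median of 15 among these genes. None of the 4 tissue-restricted isoforms with an entry held it, and their windows had a median of 6 CpG pairs, which was also the median of all promoters. The other motifs were found in 4.11% (ETS), 6.85% (ERR), 0% (YY1), 41.1% (Sp1) and 9.59% (E box) of the windows of these genes, against 2.93%, 4.05%, 0.607%, 32.9% and 6.05% of all promoters and 6.38%, 1.6%, 1.68%, 75.9% and 9.93% of the CpG-rich promoters, so that for ETS, Sp1 and the E box the direction turned with the promoters compared. A match of letters is a description of the window and says nothing on whether a factor binds there. The NRF1 core holds CpG pairs itself, so its share follows the CpG content of the windows compared.

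Within complex I, the genes called higher in iHAC1-iPS than in iHAC-free cells were 1 core subunit, Ndufs3, 8 accessory subunits, Ndufa2, Ndufa5, Ndufa8, Ndufa9, Ndufa12, Ndufb5, Ndufb7 and Ndufc2, and the assembly factors Ndufaf2 and Ndufaf4. Ndufaf4 was at 2.75, 2.60, 3.02 and 3.22 in iHAC1-iPS, 2.08, 2.96, 1.66 and 1.70 in iHAC2-iPS, 2.12, 1.48, 2.02 and 1.76 in iHAC-free cells, and 2.77 and 2.98 in the ES arrays. The iHAC1-iPS clones lay with the ES cells and above all iHAC-free lines, which were scanned in another session, by 1.05 ± 0.27 (adjusted p = 0.00986). Of the iHAC2-iPS clones, 2-C6 lay apart from the others at the ES level. Ndufa8, an accessory subunit on the side of the intermembrane space, was at 4.61, 4.55, 4.69 and 4.90 in iHAC1-iPS, 4.16, 4.37, 4.24 and 4.13 in iHAC2-iPS, 4.07, 3.95, 4.08 and 4.00 in iHAC-free cells, and 4.42 and 4.48 in the ES arrays. The groups of clones did not overlap, and the differences were 0.66 ± 0.11 over iHAC-free lines (adjusted p = 0.0011) and 0.46 ± 0.11 over iHAC2-iPS clones (adjusted p = 0.00885). Ndufb5, a subunit of the membrane arm, was 0.70 higher than in iHAC-free cells (adjusted p = 0.00181), and Ndufaf2 0.61 higher (adjusted p = 0.0104). The other differences called in this direction lay between 0.36 for Ndufs3 and 0.61 for Ndufa12.

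Ndufa12 and Ndufc2, both accessory subunits, were the complex I genes called higher in iHAC1-iPS relative to ES cells. Ndufa12 was at 5.16, 5.18, 5.05 and 5.22 in iHAC1-iPS and 4.79 and 4.65 in the ES arrays, a difference of 0.43 ± 0.12 (adjusted p = 0.0255). Ndufc2 was at 5.36, 5.37, 5.34 and 5.22 against 4.93 and 4.89, a difference of 0.41 ± 0.12 (adjusted p = 0.0339). The groups did not overlap for either gene, but neither call held throughout. Of 13 alternative fits, 6 lost the call of Ndufa12 and 8 that of Ndufc2. For each gene the losses included leaving out B6ES, leaving out TT2, fitting the compared groups alone and blocking on slide. Ndufv3, an accessory subunit beside the flavin site, moved the other way and was the gene of complex I called lower than in iHAC-free cells. It was at 2.88, 3.04, 2.99 and 2.79 in iHAC1-iPS, 3.94, 3.43, 4.10 and 3.88 in iHAC2-iPS, 3.52, 3.66, 3.49 and 3.59 in iHAC-free cells, and 3.03 and 3.09 in the ES arrays. The iHAC1-iPS clones lay at the level of ES cells, while all iHAC2-iPS and iHAC-free lines, scanned in another session, lay above both. The difference of iHAC1-iPS was -0.91 ± 0.14 from iHAC2-iPS (adjusted p = 0.000758) and -0.64 ± 0.14 from iHAC-free cells (adjusted p = 0.0045), and iHAC2-iPS was 0.78 ± 0.18 above ES cells (adjusted p = 0.0213). Ndufa6, Ndufa7 and Ndufs6 were also lower in iHAC1-iPS than in iHAC2-iPS, by -0.66, -0.78 and -0.38 (adjusted p = 0.0137, 0.00483 and 0.0187). In that comparison 4 complex I genes were called in each direction, where 17.2% of all probes were called higher and 20.3% lower. No complex I gene was called lower than in ES cells.

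Core subunits of complex I bind the flavin and most of the iron-sulphur centres. Among Ndufv1, Ndufs1, Ndufs3 and Ndufs7, the 6 comparisons gave 1 call, that of Ndufs3 against iHAC-free cells (0.36 ± 0.11, adjusted p = 0.0266). Ndufs1 ranged from 4.18 to 4.36 in iHAC1-iPS, 4.20 to 4.69 in iHAC2-iPS and 3.83 to 4.18 in iHAC-free cells, with 4.54 and 4.29 in the ES arrays. The catalytic or core genes of the respiratory complexes and the ATP synthase that were singled out were 19. Of these, 1 was called higher than in ES cells in iHAC1-iPS and 1 in iHAC2-iPS, beside 10.2% and 5.89% of all probes. In iHAC1-iPS 3 were called higher than in iHAC-free cells, beside 18.7% of all probes, and none was called lower anywhere.

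Complex II, which is also the succinate dehydrogenase of the citric acid cycle, gave a call for 1 of its 4 genes. Sdhc, a membrane anchor, was at 1.96 and 1.80 in the ES arrays, 2.57, 2.42, 2.36 and 2.25 in iHAC1-iPS, 2.19, 2.35, 2.61 and 2.67 in iHAC2-iPS, and 2.31, 2.57, 2.43 and 2.49 in iHAC-free cells. All 12 iHAC lines lay above both ES arrays. The difference was 0.51 ± 0.17 in iHAC1-iPS (adjusted p = 0.0467), 0.57 in iHAC2-iPS (adjusted p = 0.0472) and 0.57 in iHAC-free cells (adjusted p = 0.107), and the call in iHAC1-iPS was lost when any 1 of the 6 arrays was left out. Sdha, the flavoprotein that oxidizes succinate, was between 1.49 and 1.96 in all pluripotent lines but 2-B1, where it was 0.62.

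In complex III, 4 of the 7 genes were higher and 1 lower in iHAC1-iPS than in iHAC-free cells, beside 18.7% and 18.3% of all probes. Uqcrh, the hinge protein next to cytochrome c1, was at 7.05, 6.92, 7.10 and 7.19 in iHAC1-iPS, 6.92, 6.46, 6.73 and 6.43 in iHAC2-iPS, 6.34, 6.21, 6.50 and 6.38 in iHAC-free cells, and 6.84 and 6.76 in the ES arrays. The iHAC1-iPS and iHAC-free groups did not overlap and differed by 0.70 ± 0.14 (adjusted p = 0.00194). Uqcr, now Uqcr11, Uqcrc2, a core protein, and Uqcrfs1, the Rieske iron-sulphur protein, were higher by 0.43, 0.40 and 0.35 (adjusted p = 0.0156, 0.0172 and 0.0128). Uqcrb, which contributes to ubiquinone binding, was the lower one. It was at 3.30, 3.99, 4.08 and 3.66 in iHAC1-iPS, 4.89, 4.41, 4.74 and 4.89 in iHAC2-iPS, 4.36, 4.35, 4.48 and 4.47 in iHAC-free cells, and 4.48 and 4.33 in the ES arrays. All iHAC1-iPS clones lay below the other pluripotent groups, by -0.98 ± 0.18 against iHAC2-iPS (adjusted p = 0.00165) and -0.66 ± 0.18 against iHAC-free cells (adjusted p = 0.0121). Uqcrh and Uqcrb, subunits of the same complex, thus lay on opposite sides. No gene of complex III was called against ES cells.

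Complex V, the ATP synthase, differed by little. The catalytic subunits Atp5a1 and Atp5b were called in none of the 6 comparisons. Atp5g3, one of the genes for the identical c subunit of the rotor ring, was at 7.93 and 7.72 in the ES arrays, 7.69, 7.65, 7.77 and 7.77 in iHAC1-iPS, 7.18, 7.28, 7.24 and 7.21 in iHAC2-iPS, and 7.19, 6.90, 7.42 and 7.07 in iHAC-free cells. The iHAC1-iPS clones lay with the ES cells, and all iHAC2-iPS and iHAC-free lines, scanned in another session, lay below them. In iHAC2-iPS it was lower than in ES cells (difference -0.60 ± 0.15, adjusted p = 0.0301) and 0.57 higher in iHAC1-iPS than in iHAC-free cells (adjusted p = 0.00393). Atp5g2, another gene for the same protein, was lower in iHAC1-iPS than in iHAC2-iPS by -0.55 (adjusted p = 0.00849), so that these genes for the same mature subunit moved in opposite directions in that comparison, where Atp5g3 was 0.49 higher (adjusted p = 0.00997). Atp5d, the delta subunit of the central stalk, was 0.45 above ES cells in iHAC1-iPS (adjusted p = 0.0388) and 0.65 in iHAC2-iPS (adjusted p = 0.018). The call in iHAC1-iPS was lost without either ES array, without 1-A3, 1-B or 1-D6, and with the slide as a block. Atp5k and Atp5l, the membrane subunits e and g, were 0.41 and 0.40 higher in iHAC1-iPS than in iHAC-free cells (adjusted p = 0.0125 and 0.0161).

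Of the 3 names that matched the rule without being subunits, Atp5sl and Cox4nb were called and Atp5s was not, in any comparison, on its brightest probe (0.41 ± 0.39 between iHAC1-iPS and ES cells, adjusted p = 0.503). Atp5sl was at 1.63 and 1.68 in the ES arrays, -0.16, 0.61, 0.73 and -0.17 in iHAC1-iPS, 1.67, 1.43, 1.99 and 1.81 in iHAC2-iPS, and 1.34, 1.25, 1.49 and 1.44 in iHAC-free cells. The iHAC1-iPS clones lay below all other pluripotent lines, by -1.40 ± 0.26 against ES cells (adjusted p = 0.00349), -1.47 ± 0.21 against iHAC2-iPS (adjusted p = 0.000495) and -1.13 ± 0.21 against iHAC-free cells (adjusted p = 0.00182). Cox4nb was -1.41 ± 0.24 from ES cells in iHAC1-iPS (adjusted p = 0.002) and -1.02 ± 0.24 in iHAC2-iPS (adjusted p = 0.0236), and -0.68 ± 0.19 in iHAC1-iPS against iHAC-free cells (adjusted p = 0.0158).

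The comparison of iHAC2-iPS clones with the iHAC-free lines derived from them gave no gene call but a shift of the group. Of the 78 broadly expressed genes, 73 had a higher mean in iHAC2-iPS (93.6%, against 55.4% of all tested probes), with a median difference of 0.23. The median over all tested probes was 0.05. In each pair of a clone and its own derivative the median difference was positive, at 0.27 for 2-B1 and F-B1, 0.18 for 2-C6 and F-C5, 0.18 for 2-E and F-E4 and 0.28 for 2-N and F-N7, where all probes gave 0.12, 0.08, 0.07 and 0.06. The genes higher in the parent clone in all 4 pairs were 45 of 78, and 1 was lower in all 4, where 17.2% of all probes were higher and 9.1% lower in all 4. Each pair shared a slide, and within the slides the median was 0.30 on one and 0.18 on the other. The paired arrays were not alike in signal. In the same order of pairs, 54.2%, 57.4%, 59.9% and 56.7% of spots were well above background in iHAC2-iPS, against 61.9%, 59.4%, 63.0% and 60.1% in iHAC-free lines. The 75th percentile used for scaling was 422, 670, 611 and 532 against 774, 701, 700 and 692. What part this had in the shift was not tested. The size of this shift against the whole array depended on the background correction, since with normexp the median of all 88 genes was 0.189 and that of all probes 0.16. With quantile normalization these medians were 0.126 and 0.002. The smallest adjusted p among the 88 genes was 0.0701, for Ndufa12, followed by 0.0746 for Atp5d and 0.0767 for Ndufs7, with differences of 0.41 ± 0.10, 0.46 ± 0.11 and 0.43 ± 0.11.

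The iHAC-free lines lay slightly below ES cells. Of the 78 genes, 20 had a higher mean than in ES cells (25.6%, against 51.1% of all probes), with a median difference of -0.16. The direction of the median over all 88 genes, -0.13, was not kept under every scaling, since quantile normalization gave 0.022. The smallest adjusted p was that of Ndufa9, an accessory subunit, at 4.11, 3.93, 4.14 and 4.07 in iHAC-free cells against 4.66 and 4.72 in the ES arrays (difference -0.63 ± 0.14, adjusted p = 0.0608). Between iHAC1-iPS and iHAC-free cells 56 of the 78 genes lay above zero (71.8%, against 51.1% of all probes), where the median of the 88 genes was 0.13 and that of all probes 0.02, but 0.104 and 0.189 with normexp. Against ES cells, 41 of the 78 lay above zero in iHAC1-iPS and 47 in iHAC2-iPS (52.6% and 60.3%, against 50.8% and 53.2%).

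MEF and 20D17 were measured on 1 array each, so their values have no error and are given as descriptions. In MEF, 75 of the 88 genes lay below the ES mean (85.2%, against 56.7% of all tested probes), with a median of -0.404 against -0.205 over all probes. MEF had the lowest level of all 16 arrays for 42 of the 88 genes, beside 28.2% of all probes, which included 14 of the 40 genes of complex I, 11 of the 19 of complex IV and 12 of the 15 of complex V. At 2-fold or more, 11 genes were lower and 2 higher in MEF, where 22.2% and 20.5% of all probes were lower and higher. The lower ones were Cox7a1 by -3.50, Atp5sl by -2.49, Cox4nb by -1.99, Cox7c by -1.41, Cox4i1 by -1.13, Ndufaf3, Ndufs6 and Uqcrb by -1.09, -1.08 and -1.01, Cox7b2 at least 2.64-fold and Cox8c at least 2.25-fold, and Ndufv3 by 2.01-fold. The 2 higher ones were the muscle forms Cox6a2, by 4.77 or 27.3-fold, and Cox8b, at least 19.2-fold. Cox7a1, also a muscle form, was among the lower ones. In the same array all 9 genes of a striated muscle list were above background with a mean level of 1.30, against means of -4.58 to -2.95 on the other arrays, and Myog and Tnnt2, a myogenic factor and a troponin, were at 4.41 and 3.91. Whether muscle cells were part of the MEF sample was not tested.

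In 20D17, 72 of the 88 genes lay below the ES mean (81.8%, against 57.9% of all tested probes), with a median of -0.141 against -0.0942 over all probes. At 2-fold or more, 1 gene was higher and none lower, where 6.39% of all probes were higher and 4.32% lower. That gene was Cox8c, at -2.88 against -4.19 and -5.46 in the ES arrays, a difference of 1.95 from their mean, where the ES arrays themselves differed by -1.27 (TT2 minus B6ES). Cox7a1 in 20D17, at 2.30, was level with both ES arrays.

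The genes around these subunits were examined as lists. Of the 13 protein genes of mitochondrial DNA, 4 were measured, mt-Nd4, mt-Cytb, mt-Co2 and mt-Atp6, which encode subunits of complexes I, III, IV and V. None was called by limma in the 6 comparisons, and their differences lay between -0.50 and 0.43. In 2-E and 2-N, mt-Cytb was at 4.36 and 4.40 against 5.53 and 5.41 in 2-B1 and 2-C6. Of 35 measured assembly factors, 16 were higher and 3 lower in iHAC1-iPS than in iHAC-free cells, beside 18.7% and 18.3% of all probes. Cox19, a copper chaperone of complex IV assembly, was at 3.33, 3.37, 3.22 and 3.59 in iHAC1-iPS, 2.16, 2.01, 2.13 and 1.99 in iHAC-free cells and 2.51 and 2.47 in the ES arrays, a difference of 1.30 ± 0.18 from iHAC-free cells (adjusted p = 0.000273). Sdhaf1, which helps to insert iron-sulphur clusters into complex II, was the assembly factor called between iHAC2-iPS and iHAC-free cells, at 2.17, 2.17, 2.34 and 1.78 against 1.17, 1.21, 1.31 and 1.18 (0.90 ± 0.13, adjusted p = 0.0138). Cox11, another copper chaperone of complex IV, was lower in iHAC1-iPS by -1.28 against ES cells (adjusted p = 0.00252). Against ES cells 5 assembly factors were higher and 2 lower in iHAC1-iPS, beside 10.2% and 11.1% of all probes.

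Among the electron carriers and transporters, the testis forms Cyct and Ldhc were lower in the iHAC1-iPS clones relative to ES cells. Cyct, the testis cytochrome c, was at 0.88 and -1.05 in the ES arrays, -7.12, -6.45, -4.97 and -8.02 in iHAC1-iPS, 1.02, -0.00, -1.18 and 3.25 in iHAC2-iPS, and 1.96, 2.36, 1.47 and 2.41 in iHAC-free cells (adjusted p = 0.00164 for iHAC1-iPS against ES cells). It was well above background on 1 of the 4 iHAC1-iPS arrays and on all other pluripotent arrays, so the iHAC1-iPS levels are not exact and no fold is given. Cycs, the cytochrome c of other tissues, was 0.84 ± 0.15 higher in iHAC1-iPS than in iHAC-free cells (adjusted p = 0.00135) and 0.49 ± 0.15 higher than in iHAC2-iPS (adjusted p = 0.0247). Ldhc, the lactate dehydrogenase of testis, was at -1.93 and -1.53 in the ES arrays and between -7.83 and -7.59, not well above background, in iHAC1-iPS. Cyct and Ldhc thus had the direction of the germ line list, of which Ldhc is a member. Of its 9 genes, 7 were lower in iHAC1-iPS relative to ES cells, beside 11.1% of all probes. Ucp2, a mitochondrial carrier of the uncoupling protein family, was lower in iHAC1-iPS, by -1.83 against ES cells (adjusted p = 0.0428) and -2.23 against iHAC-free cells (adjusted p = 0.00349).

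Of 17 measured regulators of mitochondrial genes, 6 were higher and 3 lower in iHAC1-iPS than in iHAC-free cells, beside 18.7% and 18.3% of all probes. The lower ones were Pprc1, a coactivator, Tfb1m, a mitochondrial rRNA methyltransferase, and Polg2, a subunit of the mitochondrial DNA polymerase, at -0.65, -0.74 and -0.39. Tfam packages mitochondrial DNA and acts in starting its transcription. Its level was 5.65, 5.93, 5.74 and 6.69 in iHAC1-iPS, 4.50, 4.60, 4.79 and 4.70 in iHAC2-iPS, 4.23, 4.54, 4.36 and 4.68 in iHAC-free cells and 6.12 and 5.36 in the ES arrays. The iHAC1-iPS clones lay with ES cells and above the other iHAC lines, which were scanned in another session, by 1.55 ± 0.23 against iHAC-free cells (adjusted p = 0.000455). Esrra, an oestrogen-related receptor, was 0.98 ± 0.14 higher than in iHAC-free cells (adjusted p = 0.000288) and 0.88 ± 0.17 higher than in ES cells (adjusted p = 0.00386). Myc was 6.17 higher than in iHAC-free cells, a value that can include RNA of the vector's own c-Myc. The other 5 of the 6 higher genes are not carried by the vector. Of 19 genes of the citric acid cycle and pyruvate dehydrogenase, 3 were higher and 1 lower in iHAC1-iPS than in iHAC-free cells, beside 18.7% and 18.3% of all probes. The higher ones were Cs, Dlst and Dld, and the lower one Pdhb. Of 10 genes known to respond to low oxygen, 5 were higher in iHAC2-iPS relative to ES cells, Vegfa, Bnip3, Egln3, Adm and P4ha1, beside 5.89% of all probes, of which Bnip3 rose by 2.00 ± 0.27 (adjusted p = 0.00324). These 5 calls cross the scan sessions and were not rerun without an ES array. The mean level of this list was 2.66 to 2.99 in iHAC2-iPS, 2.29 to 2.46 in iHAC-free cells, 1.69 to 1.84 in iHAC1-iPS and 1.62 and 1.90 in the ES arrays, so that the iHAC2-iPS and iHAC-free lines, scanned apart from the others, lay above them. Its part in the subunit differences was not tested.

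Genes with several probes allowed a check within a gene. For 29 genes with at least 2 tested probes, no comparison gave opposite calls. In iHAC1-iPS against iHAC-free cells all probes were called for 5 genes, some for 10 and none for 14, and in iHAC1-iPS against iHAC2-iPS all for 8, some for 8 and none for 13. Against ES cells no gene was called on all of its probes. There, some probes were called for 5 genes and none for 24 in iHAC1-iPS. For iHAC2-iPS the counts were 4 and 25. The size of a difference could change with the probe, as for Ndufb2, a small membrane subunit of complex I, where 1 probe gave 2.43 and another 0.29 between iHAC1-iPS and iHAC-free cells. Counting a gene when any of its probes was called gave 13, 9, 0, 27, 34 and 0 genes in the 6 comparisons, in the order iHAC1-iPS, iHAC2-iPS and iHAC-free against ES cells, iHAC1-iPS against iHAC2-iPS and against iHAC-free, and iHAC2-iPS against iHAC-free.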

How the data were processed

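RNA of 16 cultures was hybridized to one-colour Agilent mouse arrays of 41174 gene probes. The deposited scanner files hold processed signals, an intensity that per the file headers the authors' scanner software had background-subtracted. The authors also deposited a table of log2 values of the same arrays, which was used as an alternative. Here each array's log2 processed signal was reduced by its 75th percentile, probes well above background on at least 1 array were kept (31415), spots with outlier flags were left out, and 1 linear model of all 16 arrays and 6 groups was fitted with limma 3.58.1 in R 4.3.3, with Benjamini-Hochberg adjustment over all tested probes and a threshold of 0.05. Depth has no counterpart on arrays, and the number of arrays limits the precision. MEF and 20D17 have 1 array each and entered no test. The brightest probe stood for each gene, symbols are those of the array design, and 114 of the 128 probes matched a current symbol. One gene is counted but not reported here by name. The members and lists were chosen with earlier results of these data known. Genes named are the isoforms, the core subunits and the up to 5 largest non-overlapping calls per direction and comparison; other called genes were named after their values were seen. Alternatives were normexp (offset 50), quantile normalization, the deposited log2 table, both filters, only the compared groups, slide and line of origin as blocks, each array left out, any probe and the dimmest probe of a gene (the last chosen after seeing the data). Each script of tests was tested on simulated data with 200 changed probes. A log2 change of 0.5 was recovered for 0% to 6% of the probes given it. A change of 1 was recovered for 20%, 32% and 26% in iHAC1-iPS, iHAC2-iPS and iHAC-free against ES cells. Between iHAC2-iPS and iHAC-free cells 42% were recovered at that size. A missing call therefore does not show equal levels. iHAC-free lines pair with iHAC2-iPS clones by origin, while the correlations of their deviations were -0.066, -0.219, 0.0344 and 0.08.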

Additional observations from a re-analysis of the deposited data

Results flagged for a closer look

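A line was listed when, in a group of 4, its level stood apart from the other 3 by Dixon's test of the gap over the range. Over the genes and groups examined this held for 9 of 147, where chance gives about 1 in 20, or 7.35. In 2-N, 4 complex I and III genes were above the other iHAC2-iPS clones: Ndufs1 at 4.69 against 4.20 to 4.25, Ndufv1 at 5.61 against 5.11 to 5.15, Uqcrc1 at 6.49 against 5.84 to 5.91, and Ndufa12 at 5.05 against 4.92 to 4.94. The first 3 of these are core subunits. A line was listed for its gap, so the size of that gap is no separate result. Sdha was low in 2-B1, at 0.62 against 1.49 to 1.60 in the other iHAC2-iPS clones. The remaining 4 departures were small: Ndufa4 in 1-B at 5.18 against 5.08 to 5.09, Uqcrfs1 in 1-D6 at 4.92 against 4.84 to 4.85, Ndufa12 in F-N7 at 4.60 against 4.52 to 4.53, and Ndufv2 in F-E4 at 2.74 against 2.79 to 2.80.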

How the results depend on the processing

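The calls of the isoforms, the core subunits and the largest non-overlapping calls were followed gene by gene. Of these 51 calls, 26 were kept under every alternative run, 25 were lost under at least 1 and none changed direction. Calls of other genes, such as Cox7c, Cox6c, Ndufa6 and Atp5k, are not among the 51. The number of called genes for iHAC1-iPS against ES cells, 11 as reported, was 7 with no filter on dim probes, 6 with only the compared groups, 7 with the slide as a fixed block, and 4 to 10 when 1 array was left out. For iHAC2-iPS against ES cells, 7 as reported, it was 0 with only the compared groups, 12 with the slide as a random block and 0 to 16 when 1 array was left out. For iHAC-free against ES cells, 0 as reported, it was 4 with normexp, 3 with the strict filter, 4 with the slide as a random block and 0 in every fit without 1 array. For iHAC1-iPS the counts without 1 array were 14 to 29 against iHAC2-iPS (20 as reported) and 21 to 26 against iHAC-free cells (26 as reported). For iHAC2-iPS against iHAC-free cells, 0 as reported, it was 6 with normexp, 4 with the strict filter and 0 to 5 without 1 array. With the line of origin as a replicate block, which pairs each iHAC-free line with its iHAC2-iPS clone, it was 0, and the block changed no call. The median of the 88 genes moved with quantile normalization from 0.01 to 0.106 for iHAC1-iPS against ES cells, from -0.13 to 0.022 for iHAC-free against ES cells, and from -0.06 to 0.025 for iHAC1-iPS against iHAC2-iPS, where normexp gave -0.076 and the deposited table -0.035, which for iHAC1-iPS against ES cells gave 0.037. With normexp the median of all tested probes itself shifted, to -0.159 for iHAC-free against ES cells, 0.189 for iHAC1-iPS against iHAC-free and 0.16 for iHAC2-iPS against iHAC-free cells. The causes were not tested. ES cells have 2 arrays, of different strains, and the dim isoforms Cox7b2, Cox8b, Cox8c and Cox4i2 lie near background, where their levels have only a bound.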
